A study of Homo sapiens with 6 samples.

Results

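The genes described here are 32 genes of cholesterol and fatty acid synthesis, chosen by name: 18 enzymes that build sterols from acetyl-CoA, 5 genes that regulate the sterol response or carry sterol, and 9 enzymes that make, desaturate or elongate fatty acids. They were followed in KMM1, an established cell line of human multiple myeloma (a plasma cell cancer), among 57290 annotated genes. All 32 were found in the deposited files and passed the filter on low values. The 3 TAZ libraries came from cells transduced with a lentivirus expressing TAZ, a transcriptional co-activator of the Hippo pathway encoded by WWTR1. The 3 control libraries came from cells transduced with the empty vector, named WPI. RNA was taken 4 days after transduction in both groups, so the controls carry a lentiviral vector too. The sources used here do not give the promoter that drives TAZ or any selection of transduced cells. The labels number the libraries 1 to 3 in each group but do not say that they came from separate cultures, so the p-values reflect only the variation among these 6 samples, which may be technical.

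Cells make cholesterol from acetyl-CoA through the mevalonate pathway, then through squalene and lanosterol. Fatty acids start from the same precursor, which ACLY makes from citrate, ACACA carboxylates and FASN condenses into palmitate. Both branches are driven by the SREBP transcription factors, encoded by SREBF1 and SREBF2, which SCAP escorts out of the endoplasmic reticulum and INSIG1 retains there when sterol is plentiful. A plasma cell secretes large amounts of immunoglobulin and needs membrane lipid for its endoplasmic reticulum.

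SREBPs bind a sterol regulatory element, commonly beside boxes for the partner factors NF-Y and Sp1. RefSeq promoter windows (GRCh38.p14, 250 bases before a transcript start) were matched for 28 of the 32 genes, in 38 windows. The 5 below were chosen because their genes are described at length: SREBF2, EBP, DHCR7 and SCD had lower values in all TAZ libraries, and HMGCS1 did not. They are printed 5′ to 3′ on the strand of the gene. Capitals mark the letters of the sterol regulatory element TCACNCCAC and of the NF-Y box CCAAT on either strand, where the reverse strand reads ATTGG.

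SREBF2 promoter (chr22:41832855-41833104, plus strand): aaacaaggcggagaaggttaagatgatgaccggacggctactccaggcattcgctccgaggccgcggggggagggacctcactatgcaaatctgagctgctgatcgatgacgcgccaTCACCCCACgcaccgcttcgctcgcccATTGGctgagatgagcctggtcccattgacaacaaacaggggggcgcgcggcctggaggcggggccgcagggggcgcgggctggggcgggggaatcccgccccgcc
EBP promoter (chrX:48521558-48521807, plus strand): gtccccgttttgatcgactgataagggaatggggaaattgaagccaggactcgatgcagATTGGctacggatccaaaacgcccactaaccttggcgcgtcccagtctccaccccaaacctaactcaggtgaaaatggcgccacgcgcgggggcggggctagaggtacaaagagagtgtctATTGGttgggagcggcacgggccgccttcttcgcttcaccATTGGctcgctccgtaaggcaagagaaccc
DHCR7 promoter (chr11:71448394-71448643, minus strand): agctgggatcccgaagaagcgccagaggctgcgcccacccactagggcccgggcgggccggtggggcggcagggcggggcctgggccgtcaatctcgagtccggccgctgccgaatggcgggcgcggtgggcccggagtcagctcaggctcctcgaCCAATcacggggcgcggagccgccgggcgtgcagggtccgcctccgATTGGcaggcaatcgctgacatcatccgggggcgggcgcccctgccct
SCD promoter (chr10:100346983-100347232, plus strand): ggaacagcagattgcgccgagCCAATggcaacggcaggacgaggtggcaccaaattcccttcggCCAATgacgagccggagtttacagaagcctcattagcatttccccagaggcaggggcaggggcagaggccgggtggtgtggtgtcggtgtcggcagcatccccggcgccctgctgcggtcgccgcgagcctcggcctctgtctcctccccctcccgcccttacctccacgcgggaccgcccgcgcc
HMGCS1 promoter (chr5:43313413-43313662, minus strand): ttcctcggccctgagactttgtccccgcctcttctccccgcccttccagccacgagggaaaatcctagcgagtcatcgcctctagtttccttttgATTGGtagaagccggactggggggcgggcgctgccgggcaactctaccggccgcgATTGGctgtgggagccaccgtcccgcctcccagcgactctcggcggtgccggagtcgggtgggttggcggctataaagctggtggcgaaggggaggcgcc

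The EBP window holds 3 NF-Y boxes, the DHCR7, SCD and HMGCS1 windows 2 each and the SREBF2 window 1. In the hg19 coordinates of the expression files, SREBF2 lies at chr22:42229109-42303312 (plus strand), EBP at chrX:48379546-48387104 (plus), DHCR7 at chr11:71139239-71163914 (minus), SCD at chr10:102106881-102124591 (plus) and HMGCS1 at chr5:43289497-43313614 (minus).

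The sterol regulatory element as spelled was present in 1 of the 28 genes, SREBF2, and in 0.883% of all 35116 promoter windows. The NF-Y box was present in 21 of the 28 genes and 65.8% of their windows, against 32.01% of all windows. The Sp1 box GGGCGG was present in 26 genes and 86.8% of their windows, against 42.6%. The E-box CACGTG was present in 4 genes and 13.2% of windows, against 6.34%. GGAATG, the motif of the TEAD factors through which TAZ binds DNA, was present in 5 genes (HSD17B7, PMVK, EBP, STARD4 and FADS2) and 13.2% of windows, against 11.9%. All 5 motifs were searched on both strands. Several genes have more than 1 window, windows of one gene can overlap, and members are not independent of each other. A match is a run of letters and not a measured binding site, and the windows carry the coordinates of a later genome build than the hg19 of the expression files.

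The libraries held 1099.95 to 2033 megabases aligned, pairwise correlations ran from 0.878 to 0.948, and the scaling factors from 0.873 in control library 3 to 1.23 in TAZ library 3. The 3 lowest correlations were those of control library 1 with the TAZ libraries (0.878 to 0.894). Control library 3 correlated at 0.897 with control library 1 and at 0.918 with TAZ library 1. Levels are given as TPM, a share of all transcripts of a library corrected for transcript length, summed over the transcripts of a gene and scaled between libraries. WWTR1, the gene of TAZ, reached 365, 138 and 145 scaled TPM in the TAZ libraries against 2.35, 1.21 and 1.40 in the controls (log2 difference 6.22 ± 0.41 SE, limma adjusted p = 8.35e-04). All 10 plasma cell markers found averaged 1 TPM or more, with summed levels of 2442 to 3161 in the controls and 2857 to 3252 with TAZ, while SDC1, IRF4 and SLAMF7 were called lower. Most of the sum was IGJ and XBP1: IGJ lay wholly higher with TAZ (1050.3 to 1224 against 1691 to 2132, log2 difference 0.68, limma adjusted p = 0.131), and XBP1 overlapped. The 6 B cell markers summed to at most 1.47, and MS4A1 and PAX5 were near 0 in all libraries. Over both groups, summed levels ran from 2.26 to 3.61 for 8 T and NK cell markers. Those of 6 adipocyte markers ran from 0.796 to 3.09. The 6 myeloid markers summed to 5.09 to 5.87 in the controls and 1.98 to 2.06 with TAZ. Among them CD14 alone averaged 1 TPM or more, and it was called lower (3.40 to 5.12 against 1.27 to 1.67, log2 difference -1.05, limma adjusted p = 0.043). The 7 fibroblast markers summed to 2.29 to 3.01 in the controls and 37.9 to 44.9 with TAZ (LUM and DCN were called higher, PDGFRA was near 0 in all), and the 6 epithelial markers to 198 to 326 and 970 to 2310 (KRT8, KRT18 and CLDN4 were called higher, KRT19 was near 0 in all). KRT8 carried most of the epithelial sum, EPCAM overlapped, and CDH1 lay wholly lower (36.9 to 57.0 against 17.1 to 30.1, log2 difference -0.94, limma adjusted p = 0.161). The part of these markers in the results on lipid genes was not tested. In bulk RNA, fewer cells of a type and less RNA per cell cannot be told apart.

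No single gene of the 32 passed the test by summed TPM, although most had lower values with TAZ. After scaling between libraries, the median log2 difference of the 32 genes (TAZ minus WPI) was -0.36, with 24 of 32 below 0 (75.0%). Over all 19390 tested genes the median was -0.05, with 54.8% below 0. In 14 of the 32 genes every TAZ library lay below every control library, and in 0 every TAZ library lay above. Among all tested genes 14.8% lay wholly below and 10.1% wholly above. Abundant genes as a whole also leaned down: of the 2648 that averaged 50 TPM or more, 68.6% were below 0, the median was -0.23, and 23.7% lay wholly below against 6.95% wholly above. The members are spread over a wide range of levels, with a median mean level of 26.2 TPM.

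With limma on log2(scaled TPM + 1) and Benjamini-Hochberg adjustment over all tested genes at 0.05, 0 of the 32 genes were called. In the same test 623 genes were called in the whole table (3.21%), 187 of them lower (0.964%) and 436 higher (2.25%). At an unadjusted limma p under 0.05, 8 members were lower and 0 higher, where 10.5% and 7.46% of all tested genes were. The median SE over the members was 0.23 on the log2 scale. Without scaling, the whole table moved up by 0.22 in its median and the members did not separate as often: 6 lay wholly below (MVK, SQLE, EBP, SREBF2, SCAP and FADS2) and 1 wholly above, against 5.67% and 15.7% of all tested genes.

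**Figure D1:**
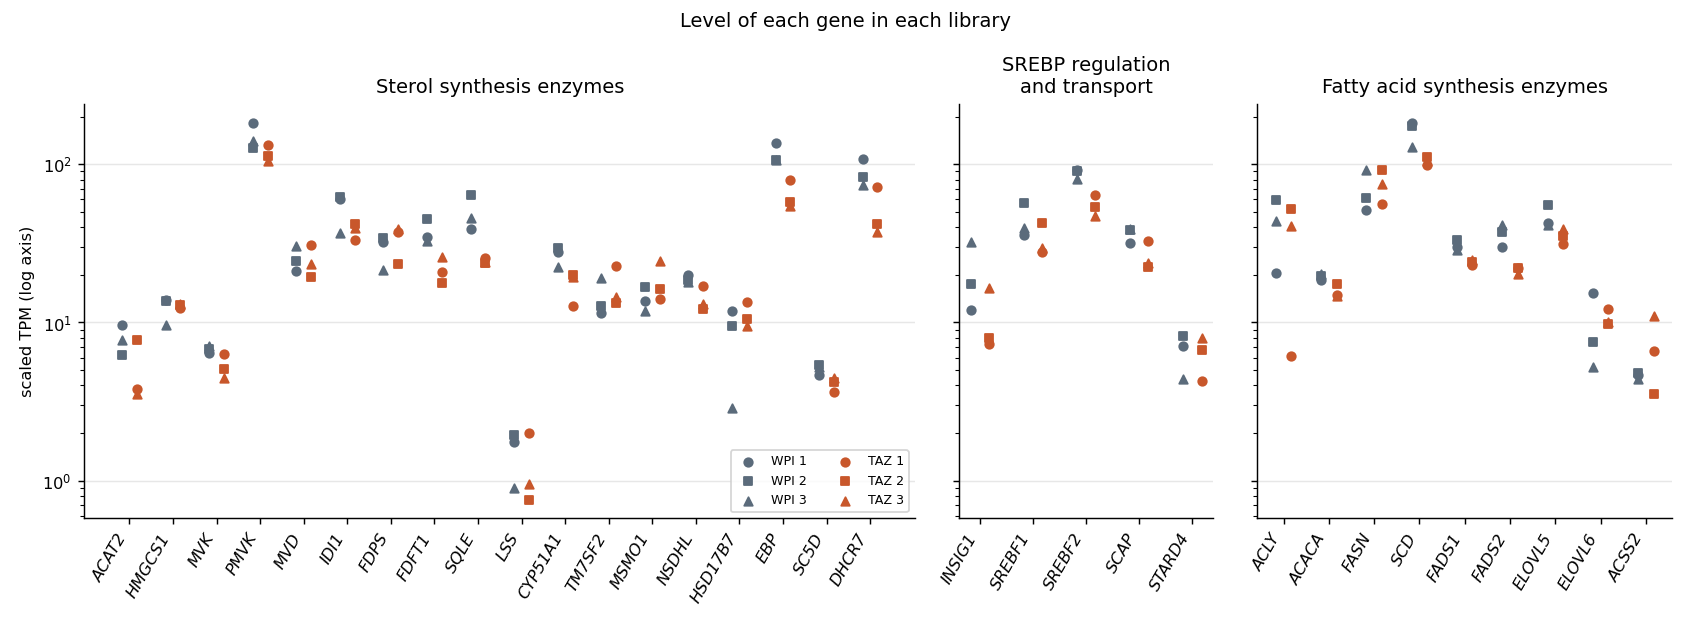
Level of each of the 32 genes in each library, in scaled TPM on a log axis, with grey points for the 3 WPI libraries and orange points for the 3 TAZ libraries. In 14 genes, SQLE, EBP, SREBF2, FADS2 and SCD among them, all orange points lie below all grey points, and in 0 genes do all lie above.

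The first steps of sterol synthesis, from acetyl-CoA to farnesyl diphosphate, mostly overlapped between the groups. HMGCS1, which makes HMG-CoA and is a classical SREBP target, was at 13.8, 13.7 and 9.62 scaled TPM in the controls and 12.4, 12.95 and 13.01 with TAZ. The groups overlapped, and the log2 difference was 0.06 ± 0.19 (SE, limma adjusted p = 0.892). Its 95% interval ran from -0.39 to 0.50, so neither a modest fall nor a modest rise could be resolved. MVK, the mevalonate kinase, was at 6.37, 6.78 and 7.06 in the controls and 6.30, 5.05 and 4.45 with TAZ, a gap between the groups of less than 0.1 TPM (log2 difference -0.31 ± 0.17, limma adjusted p = 0.392). Its exons overlap those of MMAB on the opposite strand. The MVK groups overlapped by aligned bases and on exons with depth in every library. By summed TPM the other 5 enzymes of this arm (ACAT2, PMVK, MVD, IDI1 and FDPS) overlapped between the groups, with log2 differences from -0.61 in ACAT2 to 0.16 in FDPS. By aligned bases and on exons with depth in every library, however, ACAT2 lay wholly below the controls. Its log2 differences were then -0.44 and -0.45 (limma adjusted p = 0.265 and 0.222). PMVK, the next kinase after MVK, was the most abundant sterol enzyme by mean level, at 183, 127 and 140 TPM in the controls and 132, 113 and 105 with TAZ. ACAT2 shares exon sequence with TCP1 on the opposite strand, and FDPS has 8 pseudogenes in the annotation, so reads may be divided between them.

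From squalene onward more enzymes separated. FDFT1, squalene synthase, was at 34.8, 45.3 and 32.5 scaled TPM in the controls and 20.8, 17.8 and 26.1 with TAZ. Its group means differed 1.74-fold (log2 difference -0.77 ± 0.21, limma adjusted p = 0.133). By aligned bases the FDFT1 groups did not overlap either. On exons with depth in every library, however, control 3 (8.90 scaled bases per megabase) was below TAZ libraries 1 and 2 (10.5 and 9.46). SQLE, the epoxidase that is a rate-limiting step of the pathway, was at 38.7, 64.2 and 45.6 in the controls and 25.5, 23.8 and 24.2 with TAZ. The TAZ libraries were close to each other and all below the lowest control, with means 2.02-fold apart (log2 difference -0.96 ± 0.22, limma adjusted p = 0.080). This was the most negative log2 difference among the 32 genes. In control 1, however, 17.5 of the 38.7 TPM lay on a 711-base transcript. By aligned bases that control (35.3 scaled bases per megabase aligned) was below all 3 TAZ libraries (38.6, 35.996 and 36.7). CYP51A1, which removes the C14 methyl group of lanosterol, was at 27.7, 29.7 and 22.3 in the controls and 12.6, 19.9 and 19.5 with TAZ. TAZ library 1 was the lowest of the 6, and the log2 difference was -0.60 ± 0.23 (limma adjusted p = 0.244).

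The enzymes that reshape the sterol ring were mixed. NSDHL, a C4 demethylation enzyme, was at 19.9, 18.6 and 18.02 scaled TPM in the controls and 16.9, 12.2 and 13.2 with TAZ (log2 difference -0.41 ± 0.17, limma adjusted p = 0.290). EBP, the sterol isomerase, was at 135, 106 and 106 in the controls and 79.1, 57.9 and 54.6 with TAZ. Here too the groups stood clear of each other, with means 1.81-fold apart (log2 difference -0.86 ± 0.21, limma adjusted p = 0.099). DHCR7, the last enzyme of the Kandutsch-Russell route, was at 107, 83.3 and 74.2 in the controls and 71.5, 41.9 and 37.4 with TAZ. TAZ library 1 came within 3 TPM of control library 3, and the log2 difference was -0.84 ± 0.29 (limma adjusted p = 0.208). SC5D, the C5 desaturase, was at 4.68, 5.40 and 5.24 in the controls and 3.65, 4.18 and 4.47 with TAZ, a small gap at a low level (log2 difference -0.26 ± 0.16, limma adjusted p = 0.437). The SC5D groups overlapped by aligned bases.

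MSMO1, which oxidises the C4 methyl groups, TM7SF2, a sterol reductase, and HSD17B7, a sterol ketoreductase, had positive log2 differences of 0.32, 0.20 and 0.59, with overlapping groups. HSD17B7 was lowest in control library 3, at 2.90 TPM, against 9.46 to 13.6 in the other 5 libraries. LSS, the cyclase that forms lanosterol, was near the filter in all libraries (0.761 to 2.01 TPM) and gives no resolvable comparison. TM7SF2 overlaps VPS51 on the same strand, and HSD17B7 has 2 pseudogenes in the annotation.

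Divided in pathway order, 1 of 7 enzymes from ACAT2 to FDPS and 7 of 11 from FDFT1 to DHCR7 lay wholly below the controls, with median log2 differences of -0.31 and -0.41. Over all tested genes 14.8% lay wholly below, about the share of the first arm. This division was chosen after the values were seen and was not tested. With no scaling between libraries, MVK in the first arm and SQLE and EBP in the second lay wholly below. Of all tested genes 5.67% then did. Wholly above lay 1 sterol enzyme, where 15.7% of all tested genes did.

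**Figure D2:**
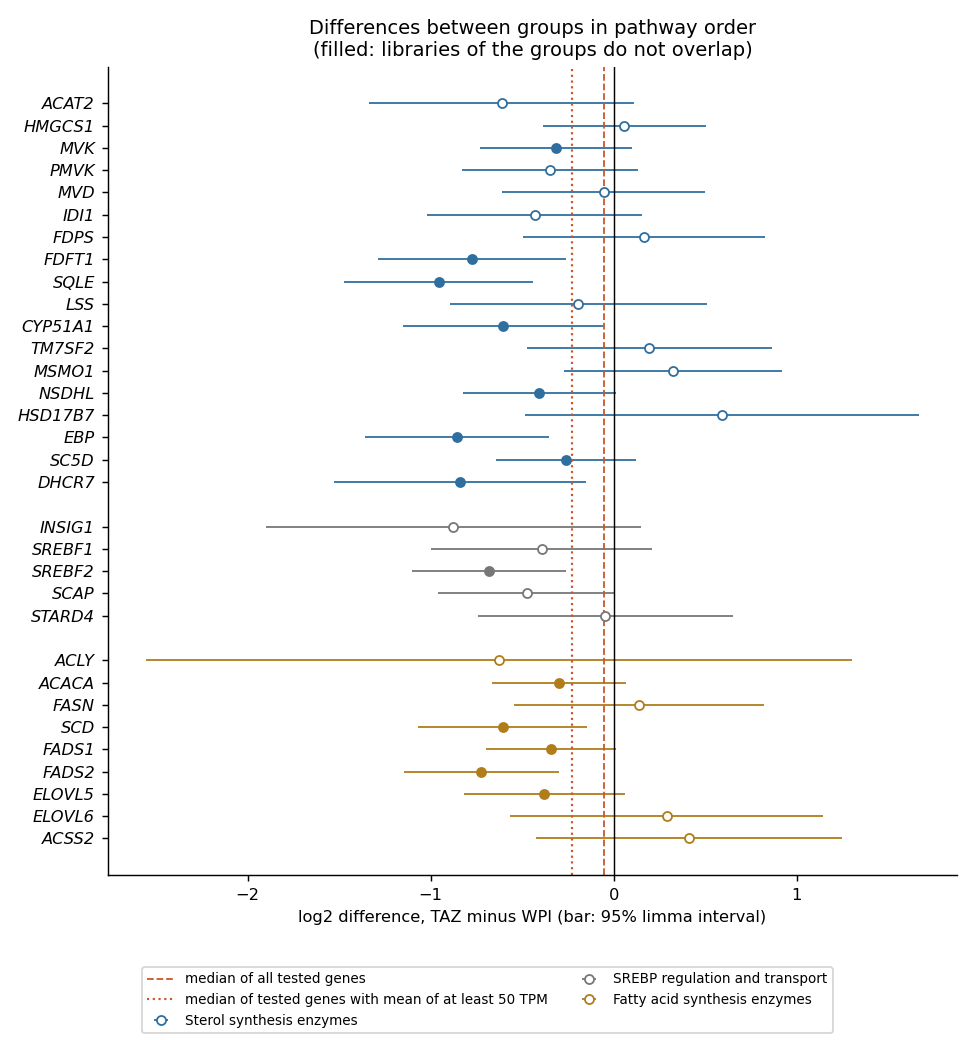
Log2 difference (TAZ minus WPI) of each gene with its 95% limma interval, in pathway order, with filled points where the groups do not overlap. The dashed and dotted lines are the medians of all tested genes (-0.05) and of those that averaged 50 TPM or more (-0.23). The differences run from -0.96 in SQLE to 0.59 in HSD17B7.

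All 5 genes of SREBP regulation and sterol transport had a log2 difference below 0, as 54.8% of all tested genes did, with a median of -0.47. SREBF2, whose product is the main activator of sterol genes and whose own promoter holds the element printed above, was at 92.4, 90.0 and 80.4 scaled TPM in the controls and 63.5, 53.3 and 46.8 with TAZ. The highest TAZ library was well under the lowest control, with means 1.61-fold apart (log2 difference -0.68 ± 0.18, limma adjusted p = 0.113). SREBF1, whose product leans toward fatty acid genes, was at 36.0, 57.2 and 39.8 in the controls and 28.0, 42.5 and 29.7 with TAZ. Its groups overlapped (log2 difference -0.39 ± 0.25, limma adjusted p = 0.452), and some of its exons are shared with RAI1 on the opposite strand. INSIG1, which holds SCAP back when sterol is plentiful, was at 12.04, 17.5 and 32.04 in the controls and 7.26, 7.97 and 16.5 with TAZ. Library 3 of each group was the highest, the groups overlapped, and the wide spread gave -0.88 ± 0.43 (limma adjusted p = 0.340). SCAP and STARD4, a cytosolic sterol carrier, had differences of -0.47 and -0.04, both with overlapping groups.

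In the fatty acid branch 5 of 9 enzymes lay wholly below the controls (14.8% of all tested genes did, and 23.7% of those that averaged 50 TPM or more): 1 carboxylase, 3 desaturases and 1 elongase. ACACA, which makes malonyl-CoA, was at 18.5, 19.7 and 20.2 scaled TPM in the controls and 14.9, 17.4 and 14.6 with TAZ. The libraries of each group were close together and the gap was small (log2 difference -0.30 ± 0.15, limma adjusted p = 0.354). For ACACA the difference was -0.18 by aligned bases and -0.08 by exons with depth in every library, with overlapping groups in both. SCD, which introduces the first double bond into saturated acyl chains, was at 183, 175 and 128 in the controls and 98.5, 111 and 105 with TAZ. SCD was the most abundant of the 32 genes by mean level, and its group means were 1.54-fold apart (log2 difference -0.61 ± 0.19, limma adjusted p = 0.183). Its pseudogene SCDP1 had means of 21.7 and 11.1 TPM.

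FADS1 and FADS2, neighbours on chromosome 11 that desaturate polyunsaturated fatty acids, both separated by summed TPM. FADS1 was at 30.0, 33.3 and 28.9 scaled TPM in the controls and 23.0, 24.0 and 25.0 with TAZ (log2 difference -0.34 ± 0.15, limma adjusted p = 0.290). On exons with depth in every library the FADS1 groups overlapped (log2 difference -0.17). FADS2 was at 29.8, 37.3 and 41.6 in the controls and 22.03, 21.98 and 20.1 with TAZ, a 1.69-fold difference of means (log2 difference -0.72 ± 0.18, limma adjusted p = 0.1004). Their exons overlap on opposite strands, and FADS2 also overlaps the abundant FEN1 on its own strand (means of 280 and 181 TPM), so the values of this locus are less certain than their spread. ELOVL5, an elongase of polyunsaturated chains, was at 42.8, 54.9 and 41.4 in the controls and 31.3, 35.3 and 39.1 with TAZ (log2 difference -0.38 ± 0.18, limma adjusted p = 0.336). Its groups too overlapped on exons with depth in every library (log2 difference -0.13).

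FASN itself did not separate. It was at 51.5, 60.9 and 92.3 scaled TPM in the controls and 56.2, 91.9 and 74.8 with TAZ (log2 difference 0.14 ± 0.28, limma adjusted p = 0.827). ACLY was at 20.4, 59.7 and 43.7 in the controls and 6.16, 52.0 and 40.8 with TAZ, low in library 1 of each group (log2 difference -0.63 ± 0.80). ELOVL6, an elongase of saturated chains, and ACSS2, which makes acetyl-CoA from acetate, had differences of 0.29 and 0.41 with overlapping groups.

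By summed TPM the sterol branch and the fatty acid branch had almost the same median log2 difference, -0.33 over 18 enzymes and -0.34 over 9. In each library the branch was also summarised as the median over its genes of the deviation from each gene's mean over the 6 libraries. For sterol enzymes this was 0.26, 0.18 and 0.15 in the controls and -0.003, -0.20 and -0.14 with TAZ. For fatty acid enzymes it was 0.087, 0.29 and 0.087 in the controls and -0.30, -0.17 and -0.037 with TAZ. The sterol value minus the fatty acid value was 0.17, -0.11 and 0.067 in the controls and 0.30, -0.033 and -0.11 with TAZ, with overlapping groups whose means differed by 0.01. TAZ library 1 had the highest sterol value of its group and the lowest fatty acid value. These summaries describe the libraries and carry no test.

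**Figure D3:**
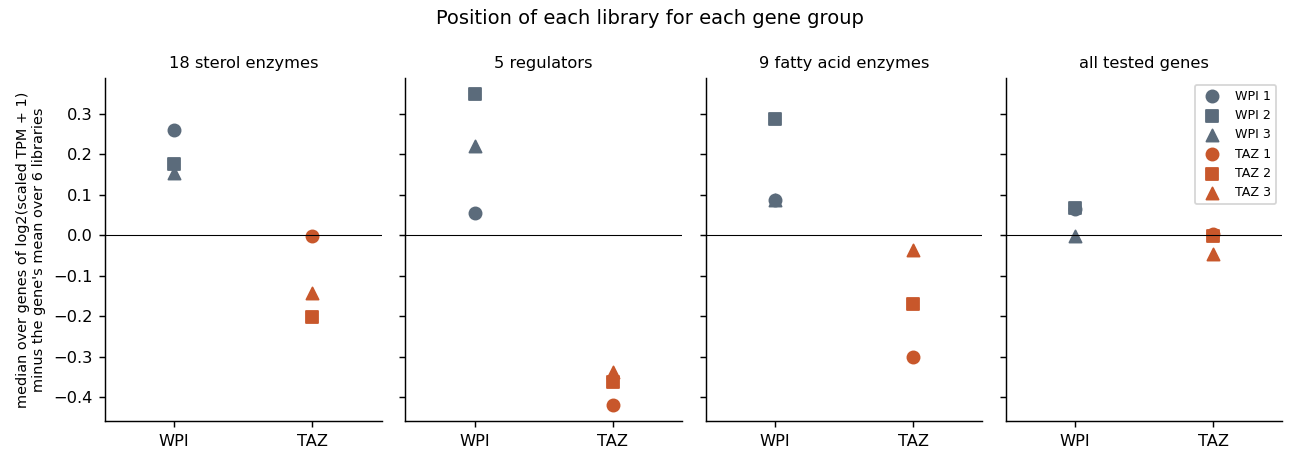
Median deviation of each library from the mean of the 6, on the log2(scaled TPM + 1) scale, for the sterol enzymes, the regulators, the fatty acid enzymes and all tested genes. Grey points are WPI and orange points TAZ libraries. All 3 gene groups are lower in every TAZ library, and all tested genes lie between -0.047 and 0.068.

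Several members were read through different transcripts in different libraries, which bears on the summed TPM. For FASN, whose gene lies on the minus strand of chromosome 17 (80036214 to 80056208, hg19), the full-length transcript ENST00000306749.2 of 8560 bases was at 51.5, 49.5 and 61.7 scaled TPM in the controls and 56.2, 32.8 and 29.4 with TAZ. The transcript ENST00000584610.1 of 1252 bases at the 3′ end was listed at 0 in library 1 of each group, at 11.4 and 30.5 in controls 2 and 3, and at 59.2 and 45.4 in TAZ libraries 2 and 3. TPM is per length, so the short transcript adds much to the sum from few reads. For FDFT1, ENST00000220584.4 was the larger in controls 1 and 2 (27.5 and 32.5), and ENST00000538689.1 in control 3 (22.9) and in the TAZ libraries (12.4, 8.38 and 19.5), though nearly level with the other transcript (7.95) in TAZ library 2. For SREBF1, ENST00000395751.4 was at 19.0, 0.873 and 22.2 in the controls and 4.61, 31.2 and 15.8 with TAZ, and ENST00000338854.5 at 9.74, 25.97 and 13.7 and at 21.8, 3.43 and 11.6. The 2 traded places between libraries of the same group, and no order between the groups can be read from them. The most abundant transcript also differed between the groups for HSD17B7 and ACSS2. In HSD17B7 the 507-base ENST00000367915.1 was at 6.38, 4.72 and 0 in the controls and 9.37, 6.45 and 6.70 with TAZ, and the 2541-base ENST00000485405.1 at 5.35, 4.74 and 2.21 and at 4.19, 4.13 and 2.84.

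**Figure D4:**
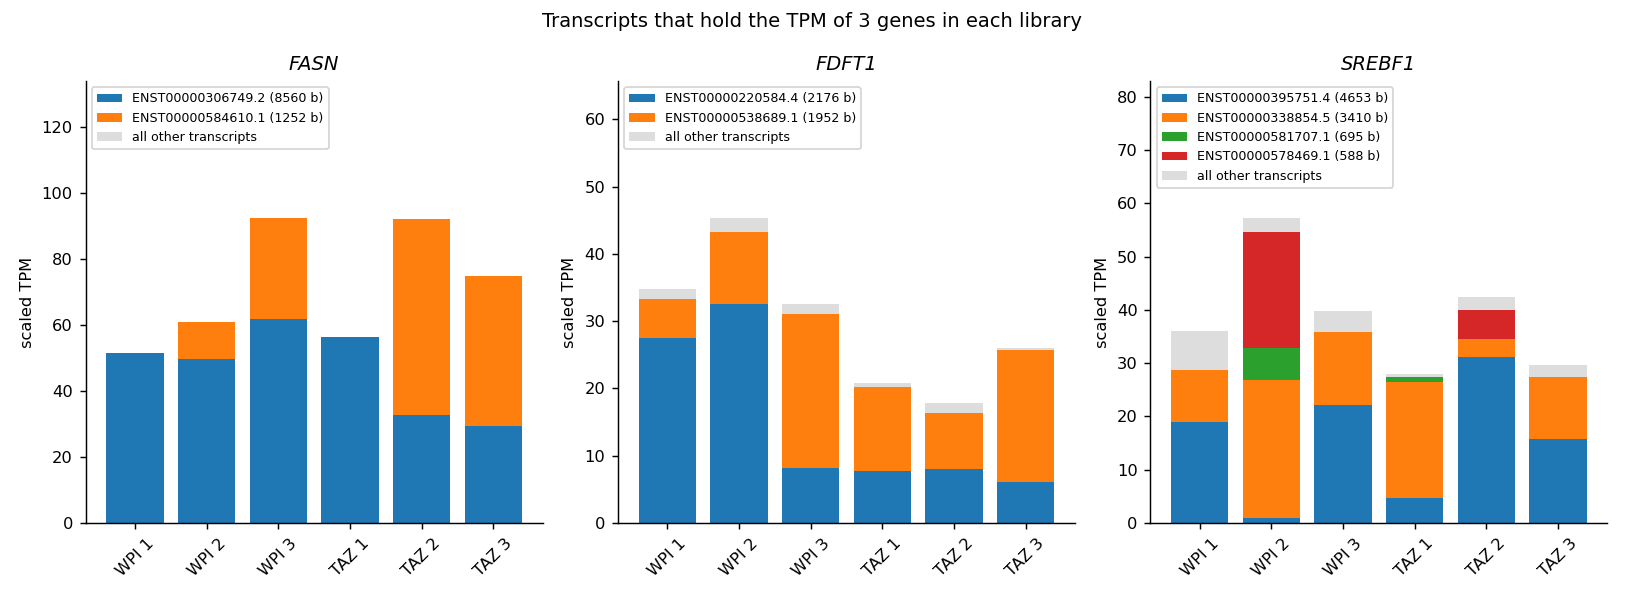
Scaled TPM of FASN, FDFT1 and SREBF1 in each library, stacked by transcript, with transcripts under a share of 10% in grey. The short FASN transcript is listed at 0 in library 1 of both groups and reaches 59.2 in TAZ library 2.

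Exon depths were uneven in the same way. Of the 410 exons in the most abundant transcripts of the 32 genes, 118 (28.8%) in 23 genes had a listed depth under 1 in at least one library and of 10 or more in another. A further 118 were listed at 0 in all 6. The 997-base last exon of ACLY, for example, had a listed depth of 0.712 in control 1 and 0.400 in TAZ library 1, and of 88.3 to 174 in the other 4 libraries. A low value of a member in a single library can therefore come with exons listed at 0.

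Because of this, the comparison was repeated with a pair of other gene values, chosen after the data were seen. The first was the number of aligned bases on a gene, relative to all aligned bases of the library. By it 0 of the 32 genes were called by limma, against 4.65% of all tested genes (1.4% lower). At an unadjusted limma p under 0.05, 10 were lower and 0 higher, where 2007 and 1447 of all 17080 tested genes were. Of the 32, 27 were below 0 (56.2% of all tested genes were). Wholly below the controls lay 12 (16.2% of all tested genes did), and 1 lay wholly above (11.2% did). The second used only exons with a listed depth of at least 1 in every library. It could be fitted for 28 genes (not for LSS, TM7SF2, SC5D or ACSS2), of which 23 were below 0 (50.2% of all tested genes were). Of the 28, 11 lay wholly below (13.3% of all tested genes did) and 1 wholly above (12.8% did). By this value DHCR7 and INSIG1 passed the test, both lower, against 4.64% of all genes tested (1.46% lower).

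DHCR7 was then at 79.9, 102 and 82.3 scaled bases per megabase aligned in the controls and 54.7, 54.7 and 55.4 with TAZ. The TAZ libraries were nearly equal, and DHCR7 fell by 0.66 on the log2 scale (limma adjusted p = 0.041). INSIG1 was at 16.7, 18.4 and 15.7 in the controls and 8.27, 9.82 and 11.2 with TAZ, and fell by 0.74 (limma adjusted p = 0.044). By aligned bases both missed the threshold (limma adjusted p = 0.059 for DHCR7 and 0.064 for INSIG1). The high INSIG1 TPM of library 3 in each group was absent here: by TPM it came from 2 short transcripts listed at 0 in the other libraries. EBP was at 106, 86.7 and 90.8 in the controls and 71.0, 53.5 and 44.5 with TAZ and missed the threshold (log2 difference -0.76, limma adjusted p = 0.074). For SQLE the values were 24.4, 27.7 and 23.2 in the controls and 11.5, 14.6 and 17.5 with TAZ (log2 difference -0.76, limma adjusted p = 0.061). FASN turned negative, with log2 differences of -0.35 by bases and -0.31 by shared exons, against 0.14 by TPM.

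In 7 of the 28 genes with all 3 gene values, every TAZ library lay below every control by each of them: CYP51A1, NSDHL, EBP, DHCR7, SREBF2, SCD and FADS2. Of the 13220 genes with all 3 values, 10.9% did so. In 3 of the 7, EBP, SREBF2 and FADS2, the same held for TPM with no scaling between libraries, as it did in 4.95% of all such genes. The SREBF2 difference was smaller by shared exons, -0.32 (limma adjusted p = 0.215) against -0.68 by TPM. FADS2 overlaps FEN1 on its own strand. ELOVL6 was the gene that lay wholly above, by bases and by shared exons, where 11.2% and 12.8% of all tested genes did.

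**Figure D5:**
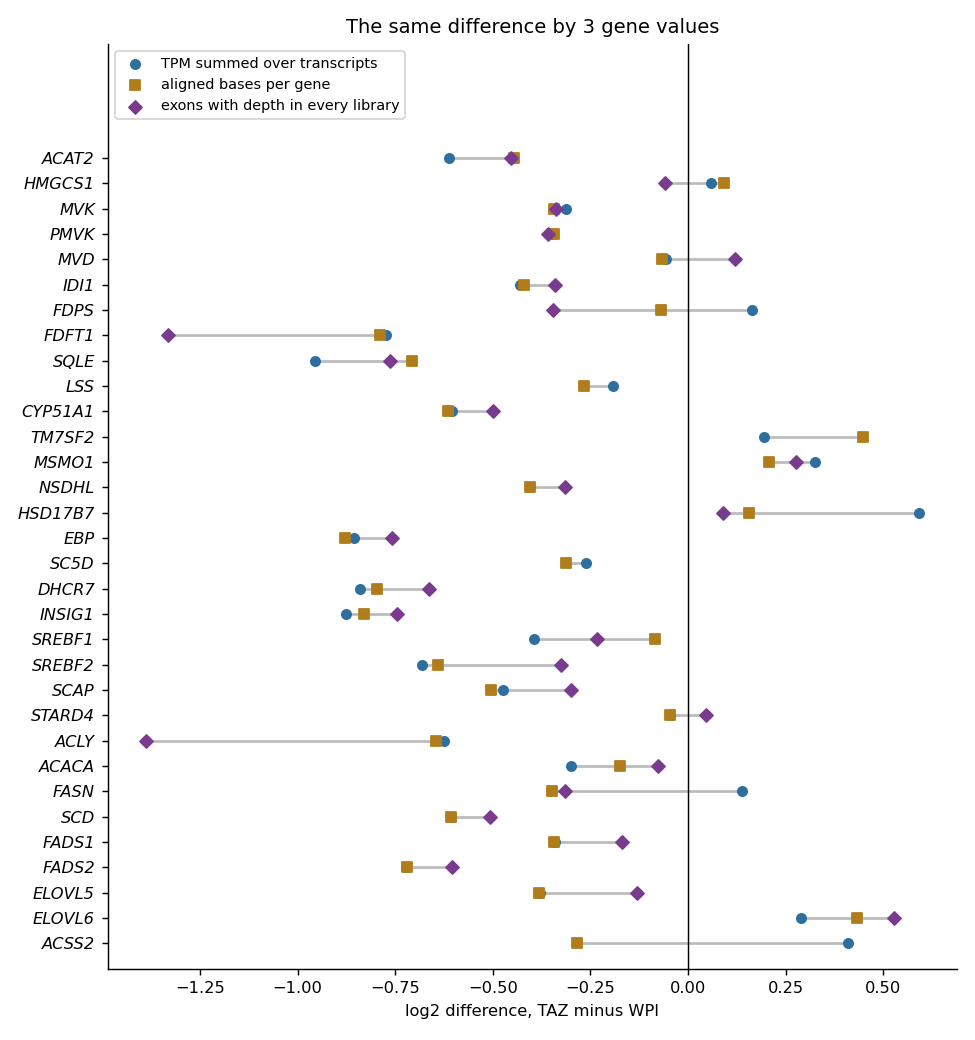
Log2 difference (TAZ minus WPI) of each gene by TPM summed over transcripts, by aligned bases, and by exons with depth in every library, joined by a grey line. The 3 values are close for EBP (-0.86, -0.88 and -0.76) and far apart for FASN (0.14, -0.35 and -0.31).

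Around the 32 genes, 5 further lists of lipid metabolism were read in the same fit, and 0 of their 51 tested genes were called by limma, where 3.21% of all tested genes were. Their medians were 0.01 over 6 other SREBP processing genes, -0.07 over 7 genes of LXR, efflux and esterification, -0.34 over 15 other genes of fatty acid synthesis and elongation, -0.17 over 12 of acyl-CoA and glycerolipid synthesis, and -0.21 over 11 of fatty acid oxidation. At an unadjusted limma p under 0.05, 7 of these 51 genes were lower and 1 higher, where 10.5% and 7.46% of all tested genes were.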

How the data were processed

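Polyadenylated RNA of KMM1 cells was sequenced on an Ion Torrent Proton, with 2 libraries per chip, from 15 ug of total RNA of integrity above 8, per the labels' protocols. The sources used here do not say which libraries were sequenced together, so how far chip and group coincide is not known. The submitters' processing notes name the build hg19 and the tools STAR 2.3.0, Bowtie2 2.0.0 and StringTie 1.3.3b. The authors deposited coverage, FPKM and TPM for 195984 transcripts, from 1 StringTie run per library on a supplied annotation, per the file headers. The sources used here give neither the annotation release nor the use of strand.

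TPM was summed per gene and scaled by the median of ratios over the 28148 genes above 0 in every library. The 19390 genes that averaged 1 TPM or more entered limma 3.58.1 (R 4.3.3, trend and robust, no block) as log2(scaled TPM + 1), adjusted by Benjamini-Hochberg over all of them. This scale understates changes of low genes. The values are not read counts, so no count test was run. The procedure was tested on simulated data. Aligned bases were recovered from the ratio of coverage to FPKM. They measure depth, which was 1099.95 to 2033 megabases, and the limma intervals have a confidence level of 95%.

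The member genes, the lists and the alternatives were chosen with earlier results of these data known. Values in every library are given for members called, members whose groups do not overlap, and HMGCS1, SQLE, FDFT1, SREBF1, SREBF2, INSIG1, ACACA, FASN and SCD. Genes of lipid metabolism outside the member list are given as counts and medians over 5 lists, and some such genes are not reported here. Other members are given by ranges and counts.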

Additional observations from a re-analysis of the deposited data

How the results depend on the processing

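Limits. With 3 libraries a group the median SE over the members was 0.23 on the log2 scale, and genes with exons listed at 0 in some libraries are less certain than their SE. Under all 18 alternatives, 0 of the 32 members were called, except with exons that had depth in every library, where 2 were (DHCR7 at -0.66, limma adjusted p = 0.041, and INSIG1 at -0.74, limma adjusted p = 0.044). That value and aligned bases per gene were chosen after seeing the data, as were the counts of genes that do not overlap under other settings. The labels do not say whether the replicate numbers pair the libraries. Same-numbered libraries had correlations of deviations from -0.055 to 0.004, and differently numbered ones from -0.042 to 0.070. With 3 libraries a group this does not settle whether they are paired. The short FASN transcript, for example, was listed at 0 only in library 1 of each group. With the number as a replicate block, 236 genes were called and still 0 members.

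The count of 623 called genes became 352 with no filter on low TPM and 317 with a minimum of 10 TPM, where more or fewer genes were tested. It ran from 278 to 774 with 1 library left out: 278 without TAZ replicate 2, 331 without TAZ replicate 3, 349 without control replicate 2 and 410 without control replicate 1. With no scaling, 533 of the calls were higher and 85 lower, which is 86.2% higher against 70.0% with scaling. The sterol median of -0.33 became -0.089 with no scaling and -0.20 with scaling on genes of at least 10 TPM, and ran from -0.42 to -0.30 with 1 library left out. The fatty acid median of -0.34 became -0.089, -0.21 and, with the most abundant transcript for the gene, -0.57, and ran from -0.39 to -0.27. Relative to the median of all tested genes, which itself moved from -0.05 to 0.17, the sterol median was -0.28 with scaling and -0.25 without, and the fatty acid median -0.29 and -0.25. The sterol minus fatty acid difference of 0.01 ran from -0.15 to 0.08 with 1 library left out, so its sign is not settled. With the most abundant transcript, the sterol median was -0.36 and the fatty acid median -0.53, relative to all tested genes. With exons that had depth in every library, these were -0.34 and -0.24. Without control replicate 3, 16 members lay wholly below the remaining controls and 1 above (27.2% and 18.2% of all tested genes), without control replicate 1, 16 and 2 (20.0% and 14.2%), and without TAZ replicate 1, 16 and 0 (25.1% and 16.6%).

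Of 321 values of the 18 members described library by library, 311 kept direction and side of the threshold. Those that changed sign were SREBF1, at 0.61 with its most abundant transcript, and HMGCS1, at -0.058 by shared exons and -0.11 without control replicate 3 (from -0.11 to 0.14 with 1 library left out). FASN changed sign in 5 settings: -0.50 with its most abundant transcript, -0.35 by aligned bases, -0.31 by shared exons, -0.039 without control replicate 1 and -0.031 without TAZ replicate 2 (from -0.039 to 0.37 with 1 library left out). The cause of these changes was not tested.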
